A study of Mus musculus with 6 samples.

Results

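The 49 genes described here build and police the attachment of chromosomes to the mitotic spindle. They encode the proteins of the centromere, of the kinetochore that assembles on it, and of the spindle checkpoint that waits for every kinetochore to be attached. The genes were chosen by symbol, as members of 8 complexes or groups, and all 49 were found among the 37043 symbols of the table. All 49 also passed the filter on low counts, which left 16675 genes to be tested.

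The study compared bone marrow-derived basophils (BMBAs) that were given IL-3 with BMBAs given PBS, in bulk RNA-seq of 3 libraries per group. BMBAs are basophils grown in culture from bone marrow, here from C57BL/6J WT mice of an age not given in the sources. Marrow cells of both groups were kept for 7 days at a dose of 0.3 ng/mL of a cytokine that the study's methods name as IL-3, after which CD49b beads were used to enrich the basophils. One group then received IL-3 at 10 ng/mL for 6 h and the other received PBS for the same time. Both groups had therefore grown in IL-3, and the sources used here do not say whether any of it remained in the PBS cultures. Enrichment with beads does not leave a pure population, and BMBAs hold both pre-basophils, which the study marks by CLEC12A, and mature basophils. The study describes the 3 libraries of a group as 3 cultures. No source says that these came from separate animals, so the p-values measure the spread between cultures.

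In each cell cycle the histone variant CENP-A marks where the centromere lies, and a constitutive network of proteins binds it. In mitosis that network recruits the outer kinetochore, which holds the ends of microtubules. The checkpoint delays anaphase until every kinetochore is attached, and Aurora B kinase releases wrong attachments. Most of these genes are transcribed in a wave that peaks late in the cell cycle. The wave is set in part by 2 short promoter elements, the cell cycle genes homology region (CHR), which is bound by MuvB complexes through LIN54, and CCAAT boxes, which are bound by NF-Y.

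The 10 promoter stretches below show these elements as they stand in genes from 6 of the groups. Each stretch runs 5′ to 3′ on the gene's strand from 120 bases before the annotated start to 30 bases from it on, so that it holds 150 bases. They were read from RefSeq promoter windows on build GRCm38.p6. Capitals mark a CHR, searched as TTTGAA on either strand and thus read as TTCAAA when it lies on the other strand, or a CCAAT box, read as ATTGG when it lies on the other strand. The first 6 are from genes whose expression fell with IL-3 and whose window holds both elements. Bub3 has both elements and Zwint has CCAAT boxes, and neither gene was called. Birc5 has no match and fell, and Cenpo has no match and was not called.
Cenpa: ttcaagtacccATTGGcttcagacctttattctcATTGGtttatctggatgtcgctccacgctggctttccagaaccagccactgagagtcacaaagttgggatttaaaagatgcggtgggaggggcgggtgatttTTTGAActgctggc
Hjurp: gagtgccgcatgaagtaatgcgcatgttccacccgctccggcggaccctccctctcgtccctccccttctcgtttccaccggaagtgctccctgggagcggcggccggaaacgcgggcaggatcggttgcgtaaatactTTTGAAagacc
Spc25: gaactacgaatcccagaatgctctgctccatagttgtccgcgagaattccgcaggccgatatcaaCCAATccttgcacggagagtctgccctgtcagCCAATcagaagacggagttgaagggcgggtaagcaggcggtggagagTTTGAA
Cenpf: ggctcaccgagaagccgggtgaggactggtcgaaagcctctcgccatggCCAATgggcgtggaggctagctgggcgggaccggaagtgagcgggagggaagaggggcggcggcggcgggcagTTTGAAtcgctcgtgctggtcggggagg
Cdc20: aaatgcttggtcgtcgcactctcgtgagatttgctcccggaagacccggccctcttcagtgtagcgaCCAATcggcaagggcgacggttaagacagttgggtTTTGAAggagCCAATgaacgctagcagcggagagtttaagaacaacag
Cdca8: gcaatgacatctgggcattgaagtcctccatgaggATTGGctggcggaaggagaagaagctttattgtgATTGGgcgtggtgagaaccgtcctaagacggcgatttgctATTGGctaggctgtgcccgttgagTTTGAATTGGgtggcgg
Bub3: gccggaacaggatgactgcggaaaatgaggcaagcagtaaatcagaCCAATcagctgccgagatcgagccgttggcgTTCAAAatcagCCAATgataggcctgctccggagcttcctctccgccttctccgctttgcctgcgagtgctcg
Zwint: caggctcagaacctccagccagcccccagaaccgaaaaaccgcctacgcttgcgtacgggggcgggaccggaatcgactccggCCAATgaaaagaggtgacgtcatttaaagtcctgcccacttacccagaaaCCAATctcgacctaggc
Birc5: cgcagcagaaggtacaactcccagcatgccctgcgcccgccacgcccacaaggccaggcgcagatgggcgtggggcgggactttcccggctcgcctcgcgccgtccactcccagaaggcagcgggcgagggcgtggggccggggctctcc
Cenpo: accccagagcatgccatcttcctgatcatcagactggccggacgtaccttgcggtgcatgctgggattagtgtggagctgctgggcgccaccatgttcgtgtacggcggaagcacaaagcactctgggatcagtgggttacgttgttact

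The stretch of Cenpa lies at chr5:30666766-30666915 on the plus strand, with CCAAT boxes upstream and the CHR just past the start. Hjurp is at chr1:88277550-88277699 (minus strand) and its CCAAT box lies further upstream than the stretch. The stretch of Spc25 spans chr2:69206184-69206333 on the minus strand and ends in its CHR. Cenpf was read at chr1:189688057-189688206 (minus strand), and its CHR starts 2 bases past the start. In Cdc20, at chr4:118437314-118437463 on the minus strand, the CHR stands between a pair of CCAAT boxes. Cdca8, at chr4:124936888-124937037 on the minus strand, has 4 CCAAT boxes, one of which shares a base with the CHR. The stretches of Bub3, Zwint, Birc5 and Cenpo are at chr7:131560250-131560399 (plus), chr10:72654726-72654875 (plus), chr11:117849117-117849266 (plus) and chr12:4233936-4234085 (minus).

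Expression of the centromere and kinetochore genes was lower after IL-3 in nearly every complex. By edgeR's quasi-likelihood test 39 of the 49 genes fell at an adjusted p below 0.05, 10 were not called and 0 rose. Of the genes with a positive log2 fold change, 0 had an unadjusted p below 0.05, and DESeq2, limma-voom and the edgeR exact test also called 0 members higher. Among all genes tested, 20.2% were called lower and 18% were called higher. The median log2 fold change (IL-3 over PBS) was -0.99 over the 49 genes and -0.0033 over all genes tested. In 39 of the 49 genes all 3 IL-3 libraries lay below all 3 PBS libraries, against 24.4% of all genes tested. In these bulk samples, fewer cells that express a gene and less RNA per cell cannot be told apart.

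The split of calls over all genes depends on how libraries are scaled. With TMM scaling 3003 genes were called higher and 3372 lower, so that 47.1% of the calls were higher. With library totals alone 1698 were higher and 5030 lower, and 25.2% of the calls were higher. That scaling moved the median of all genes to -0.17 and the median of the 49 genes to -1.15, with 43 genes called lower.

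Taken as a sum, the 49 genes reached 1234, 1360 and 1350 CPM (read counts scaled to a common library size by TMM) in the 3 PBS libraries. The sum was 850, 799 and 752 CPM in the 3 IL-3 libraries. The groups did not overlap, and the PBS mean of 1314 ± 69.7 CPM (SD, n = 3) was 1.64-fold above the IL-3 mean of 800.2 ± 48.8 CPM (SD, n = 3). As raw reads, the 49 genes held between 15087 and 15507 counts of each PBS library and between 8605 and 9694 counts of each IL-3 library. Library totals lay between 10537540 and 13999287 counts.

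The libraries of a group were alike in these genes. Relative to the PBS mean of each gene, the median over the 49 genes was -0.09, 0.04 and 0.05 (log2) in PBS replicates 1 to 3. It was -0.82, -0.87 and -1.08 in IL-3 replicates 1 to 3. Genes below their PBS mean numbered 44, 45 and 47 of 49 in the IL-3 libraries and 36, 21 and 19 in the PBS libraries. IL-3 replicate 1 was thus the mildest of its group, and a member such as Cdc20, Ndc80 or Sgo1 had its highest IL-3 value in that library.

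**Figure D1:**
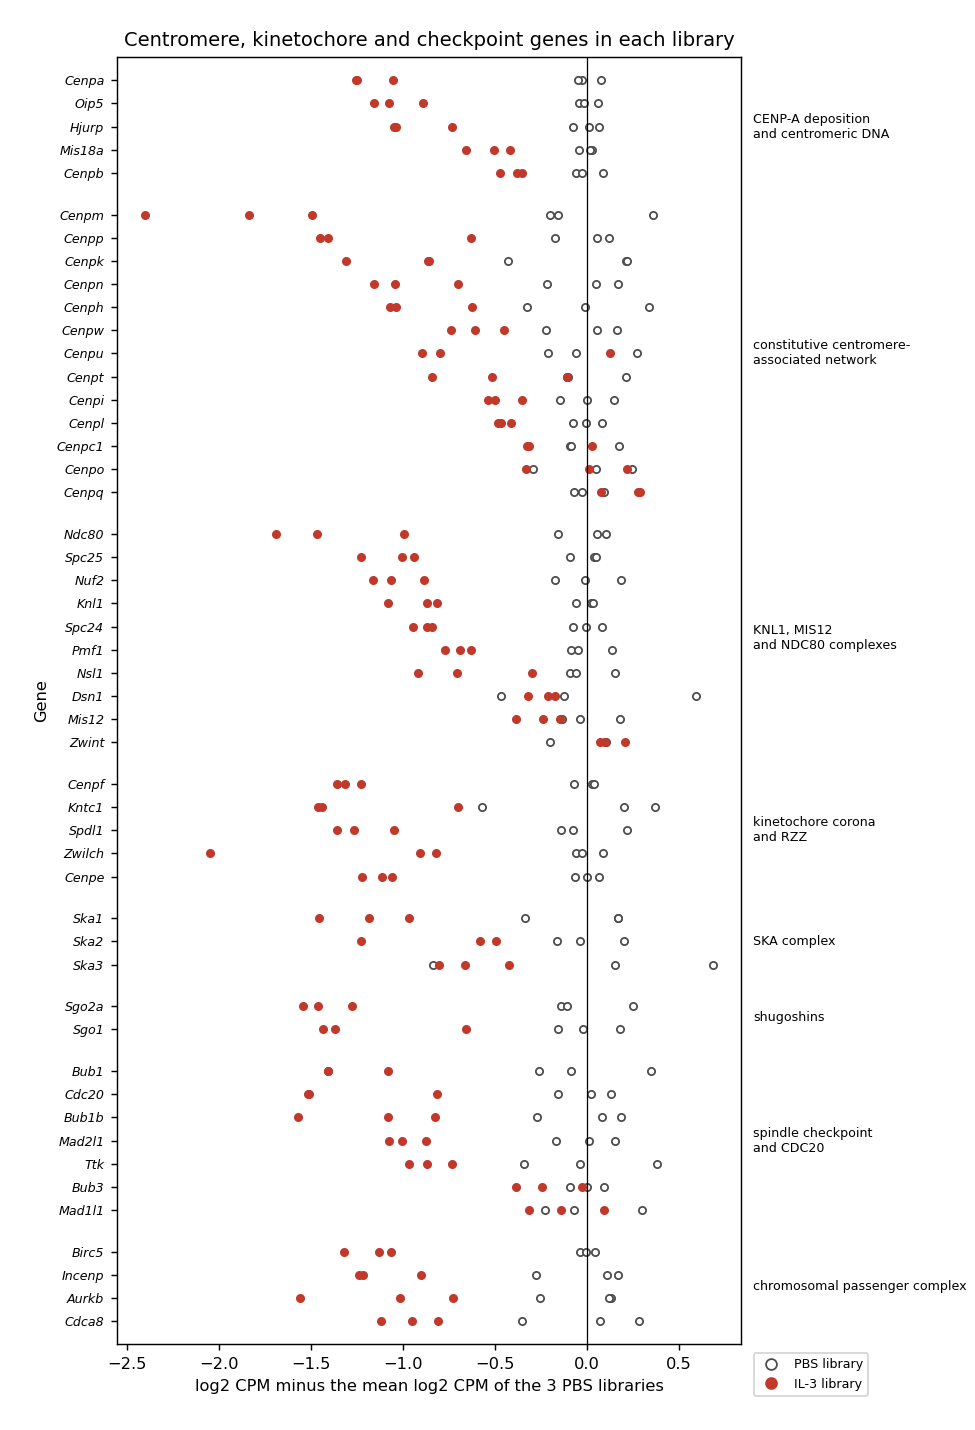
Expression of each of the 49 genes in the 6 libraries, as log2 CPM minus the gene's mean log2 CPM over the 3 PBS libraries (x axis), with genes grouped by complex (y axis). Open points are PBS libraries and filled points are IL-3 libraries, and in 39 genes the filled points all lie to the left of the open ones.

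The falls were of similar size in most of the called members. Of the 39 called genes, 30 had a log2 fold change between -1.5 and -0.75, 1 lay below that band and 8 lay above it. The band was not set in advance, and over all 49 genes the log2 fold change ran from -1.99 to 0.22. Spearman's rho between the log2 fold change and the PBS mean CPM was 0.0688 over the 49 genes. With the length of the longest transcript rho was -0.0199. Both values are descriptions across genes of the same 6 libraries.

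**Figure D2:**
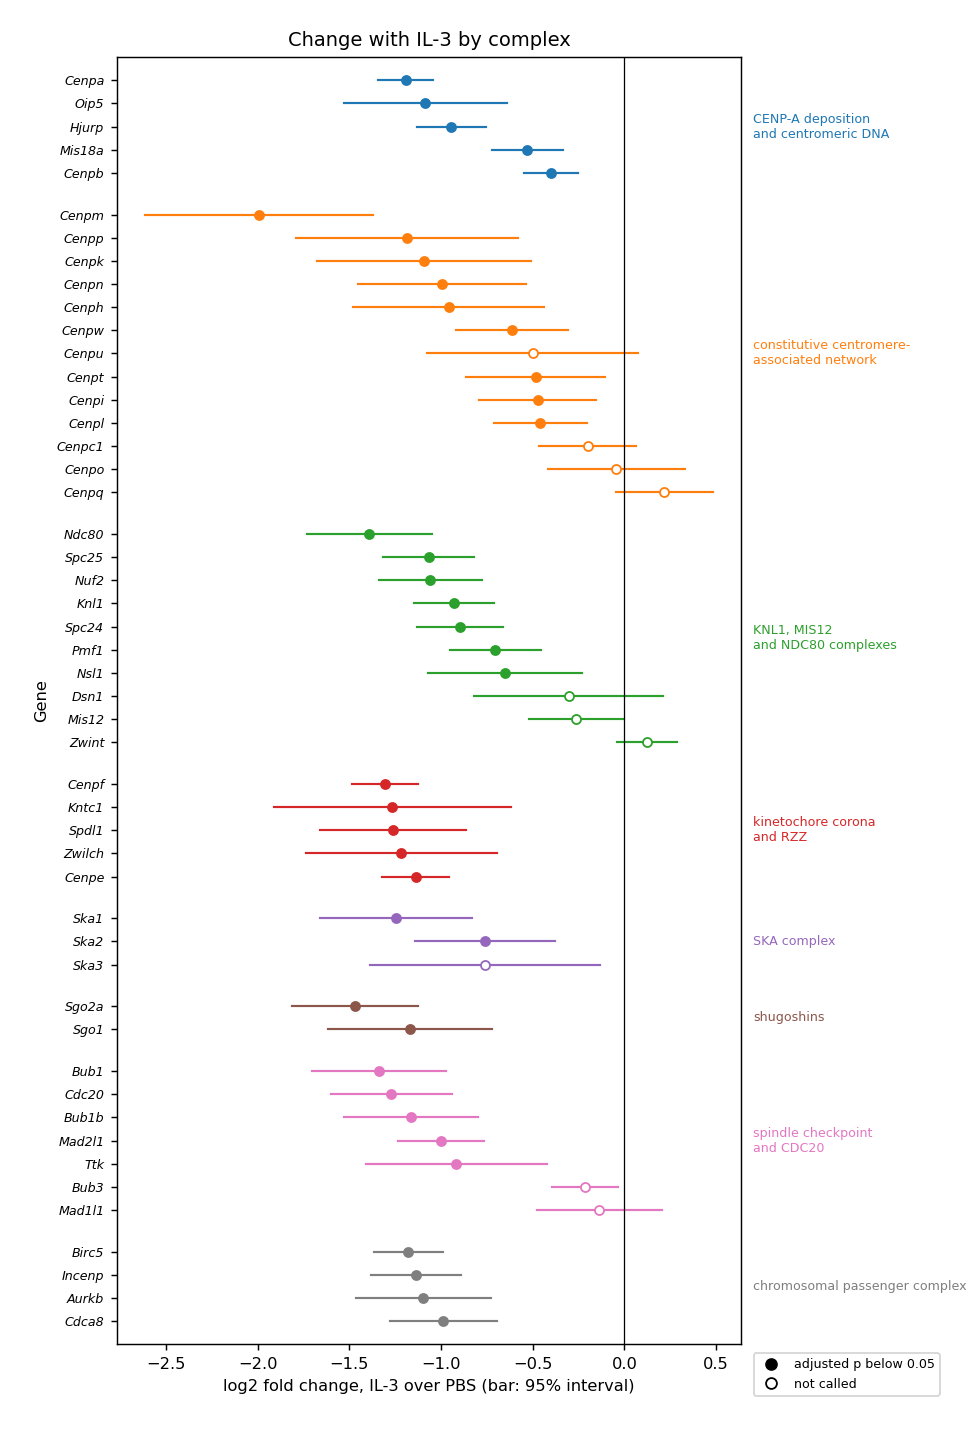
Log2 fold change of IL-3 over PBS (x axis) for each gene (y axis), coloured by complex, with the 95% interval from edgeR's quasi-likelihood fit as a bar. Filled points have an adjusted p below 0.05. The shugoshins and the corona lie furthest to the left as groups, with medians of -1.32 and -1.26, and the constitutive network spreads from -1.99 to 0.22.

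The genes that define the centromere all fell. The 5 genes of CENP-A deposition and centromeric DNA were each called lower, at a median log2 fold change of -0.94. Cenpa, which encodes the centromeric variant of histone H3, was at 126, 117 and 115 CPM in the PBS libraries and at 57.3, 49.7 and 50.03 CPM in the IL-3 libraries. Its groups were far apart, with a log2 fold change of -1.19 (SE 0.0706, adjusted p = 1.47e-09, edgeR quasi-likelihood), or 2.29-fold lower after IL-3. Hjurp, the chaperone that loads CENP-A onto chromatin, went from 70.2, 67.6 and 63.8 CPM to 40.3, 32.3 and 32.6 CPM. That is a log2 fold change of -0.94 (SE 0.0889, adjusted p = 4.26e-07), again without overlap.

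The 2 genes that encode subunits of the MIS18 complex, which licenses the loading of CENP-A, differed in the size of their fall. Oip5 fell by 1.09 on the log2 scale and Mis18a by 0.53. Cenpb, whose product binds satellite DNA directly, showed the smallest change of the group, at -0.40 (SE 0.0687, adjusted p = 0.000225 by edgeR). Its PBS libraries were at 72.0, 79.7 and 73.8 CPM and its IL-3 libraries at 54.0, 57.6 and 58.8 CPM, so that even this modest change left the groups apart.

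The constitutive centromere-associated network was the least uniform group. Of its 13 genes 9 fell and 4 were not called, and the median log2 fold change was -0.50. Cenpm, a subunit of the CENP-H/I/K/M module, had the largest change of all 49 genes. It was at 4.25, 4.38 and 6.34 CPM in PBS and at 0.790, 1.25 and 1.63 CPM in IL-3. This amounts to a log2 fold change of -1.99 (SE 0.292, 95% interval -2.61 to -1.37, adjusted p = 5.15e-05 by edgeR), on a gene with few reads. A count of 3, which is what a count of 0 would still allow, corresponds to 0.233 to 0.296 CPM in these libraries, so all its values lie above that floor.

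Its partners in the same module followed to different degrees. Cenpk fell by 1.09, Cenph by 0.96 and Cenpi by 0.47 on the log2 scale. Cenpn, which reads the CENP-A nucleosome, had 6.14, 5.09 and 6.69 CPM in PBS and 2.57, 3.58 and 2.79 CPM in IL-3. The log2 fold change of Cenpn was -0.995 (SE 0.215, adjusted p = 0.00163 by edgeR), while Cenpl, its binding partner, fell by 0.46. Of the histone-fold pair that reaches out to the NDC80 complex, Cenpw fell by 0.61 and Cenpt by 0.48. The call for Cenpt was a narrow one (adjusted p = 0.0434 by edgeR). Its libraries overlapped, with 13.8, 11.05 and 11.10 CPM in PBS and 11.06, 6.58 and 8.30 CPM in IL-3. Cenpt lost its call without any 1 library other than IL-3 replicate 1, at adjusted p between 0.0507 and 0.199. Cenpi lost its call without PBS replicate 1, IL-3 replicate 1 or IL-3 replicate 3, at adjusted p between 0.0612 and 0.0828. In the DESeq2 Wald test on all 6 libraries neither gene was called (adjusted p = 0.0646 for Cenpt and 0.0555 for Cenpi).

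The CENP-O/P/Q/U module, which helps to dock Polo-like kinase 1, was split. Cenpp fell by 1.19 on the log2 scale (adjusted p = 0.00356 by edgeR), and the other three were not called. Cenpo was nearly level, with 11.9, 10.3 and 8.10 CPM in PBS and 11.6, 10.1 and 7.91 CPM in IL-3. Its log2 fold change was -0.04, with a 95% interval of -0.42 to 0.33 (adjusted p = 0.875), and its sign turned without PBS replicate 1 (0.089) or IL-3 replicate 3 (0.1002). Cenpq stood at 13.2, 14.3 and 12.8 CPM in PBS and at 16.3, 16.4 and 14.1 CPM in IL-3. With 0.22 (95% interval -0.05 to 0.48, adjusted p = 0.193) it had the highest log2 fold change of the 49 genes, and its groups overlapped. Cenpu had 4.34, 6.14 and 4.84 CPM in PBS and 5.53, 2.83 and 2.64 CPM in IL-3, so that 1 IL-3 library stood among the PBS libraries. Its log2 fold change was -0.50 (95% interval -1.08 to 0.07, adjusted p = 0.165), and without IL-3 replicate 1 it was -0.90 and passed (adjusted p = 0.0134).

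Cenpc1, which encodes CENP-C, the backbone that links CENP-A nucleosomes to the MIS12 complex, was the remaining gene of the network without a call. It was at 21.3, 25.6 and 21.3 CPM in PBS and at 18.2, 23.1 and 18.0 CPM in IL-3. The libraries overlapped and the log2 fold change was -0.20 (95% interval -0.47 to 0.07, adjusted p = 0.231), and with library totals in place of TMM it was -0.36 and passed (adjusted p = 0.0323). Within a library, the ratio of Cenpc1 to Cenpa reads was 0.169, 0.219 and 0.185 in PBS and 0.317, 0.464 and 0.360 in IL-3. The pair was chosen after the values were seen, and the ratio is given without a test.

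In the outer kinetochore, every subunit of the microtubule-binding NDC80 complex fell, along with Knl1 and 2 of the 4 subunits of the MIS12 complex. Of the 10 genes of the KNL1, MIS12 and NDC80 complexes 7 fell and 3 were not called, and the median log2 fold change was -0.80. All 4 NDC80 subunits were called lower, Ndc80 by 1.39, Nuf2 by 1.06, Spc25 by 1.07 and Spc24 by 0.90 on the log2 scale. Spc25, which anchors the complex to the inner kinetochore, was at 26.7, 24.3 and 26.9 CPM in PBS and at 12.8, 13.4 and 10.9 CPM in IL-3. Its log2 fold change had an SE of 0.117 and an adjusted p of 2.31e-06 by edgeR, and the groups were well apart.

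Knl1, the scaffold on which checkpoint proteins gather, fell by 0.93 on the log2 scale (SE 0.102, adjusted p = 2.36e-06 by edgeR). It went from 31.99, 33.9 and 34.2 CPM to 18.9, 18.2 and 15.7 CPM. Zwint, whose protein binds KNL1 and helps to bring the RZZ complex to the kinetochore, had 102, 125 and 125 CPM in PBS and 125, 123 and 135 CPM in IL-3. The groups of Zwint overlapped, with a log2 fold change of 0.12 (95% interval -0.04 to 0.29, adjusted p = 0.239) that turned to -0.04 when libraries were scaled by their totals alone. The ratio of Zwint to Knl1 reads within a library was 3.18, 3.68 and 3.66 in PBS and 6.63, 6.76 and 8.59 in IL-3. These ratios do not depend on the scaling of libraries, and the pair was chosen after the values were seen, so no test is given.

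Of the 4 subunits of the MIS12 complex, Pmf1 fell by 0.70 and Nsl1 by 0.65 on the log2 scale. The call for Nsl1 was lost without PBS replicate 2, IL-3 replicate 2 or IL-3 replicate 3, where its adjusted p was 0.0629, 0.0806 and 0.0547. Mis12 was at 18.7, 19.99 and 23.3 CPM in PBS and at 17.4, 18.6 and 15.7 CPM in IL-3. Its groups did not overlap, by a small margin, yet the log2 fold change of -0.26 (95% interval -0.52 to -0.01, adjusted p = 0.102) did not pass the threshold. With libraries scaled by their totals alone Mis12 was called lower (-0.43, adjusted p = 0.0134). Dsn1 had 4.25, 5.44 and 9.07 CPM in PBS and 4.74, 5.25 and 5.12 CPM in IL-3. PBS replicate 3 stood far above the rest, and the log2 fold change of -0.30 (95% interval -0.82 to 0.21, adjusted p = 0.359) became 0.060 without it.

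The fibrous corona is the outermost layer, which catches microtubules before they are held end-on. All 5 corona genes fell, with log2 fold changes between -1.31 and -1.14 and a median of -1.26. The range was about as narrow as that of the chromosomal passenger complex (-1.18 to -0.99). Cenpf, a large coiled-coil protein of the corona, was at 53.5, 53.9 and 50.03 CPM in PBS and at 20.3, 20.99 and 22.3 CPM in IL-3. That was a 2.47-fold fall, at a log2 fold change of -1.31 (SE 0.0841, adjusted p = 4.19e-09 by edgeR). Cenpe, a kinesin motor that carries chromosomes to the spindle equator, went from 48.1, 50.3 and 52.8 CPM to 23.2, 24.1 and 21.5 CPM. Its log2 fold change was -1.14 (SE 0.0856, adjusted p = 2.82e-08). The 3 genes around the RZZ complex, which carries checkpoint proteins off attached kinetochores with dynein, fell alongside. Kntc1 fell by 1.26, Zwilch by 1.22 and Spdl1, which encodes the dynein adaptor Spindly, by 1.26 on the log2 scale.

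The SKA complex strengthens the grip of NDC80 on microtubules that shorten. Of its 3 genes 2 fell. Ska1 was at 11.4, 7.98 and 11.4 CPM in PBS and at 4.34, 5.08 and 3.57 CPM in IL-3, with a log2 fold change of -1.24 (SE 0.195, adjusted p = 9.76e-05 by edgeR). Ska2 went from 12.8, 14.03 and 16.6 CPM to 10.2, 9.58 and 6.05 CPM, a log2 fold change of -0.76 (SE 0.179, adjusted p = 0.00314). Neither gene had overlapping groups. Ska3 had the same log2 fold change of -0.76 with a wider 95% interval of -1.39 to -0.13 and was not called (adjusted p = 0.0528). Its PBS libraries were far from one another, at 3.76, 11.1 and 7.66 CPM, and PBS replicate 1 lay below the IL-3 libraries, which were at 3.85, 5.08 and 4.27 CPM. Without PBS replicate 1 the log2 fold change of Ska3 was -1.09 and passed (adjusted p = 0.00111). With all 6 libraries Ska3 also passed in the DESeq2 Wald test (adjusted p = 0.0475), in the edgeR exact test (0.0364), with the replicate block (0.0283), without the low count filter (0.00177) and with library totals (0.0185).

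Shugoshins protect the cohesin at centromeres until anaphase, and both genes fell. Sgo2a was at 13.3, 17.4 and 13.6 CPM in PBS and at 5.92, 4.91 and 5.197 CPM in IL-3. With a log2 fold change of -1.47 (SE 0.161, adjusted p = 2.38e-06 by edgeR) it had the second largest change of the 49 genes. Sgo1 went from 10.6, 8.33 and 9.16 CPM to 5.82, 3.50 and 3.34 CPM, a log2 fold change of -1.17 (SE 0.211, adjusted p = 0.000366). In both genes every IL-3 library lay below every PBS library.

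Of the 7 genes of the spindle checkpoint and its target Cdc20, 5 fell and 2 were not called, at a median log2 fold change of -0.9995. Mad2l1 encodes MAD2, which captures CDC20 while kinetochores are unattached. It was at 29.8, 37.3 and 33.7 CPM in PBS and at 18.2, 16.6 and 15.7 CPM in IL-3, a log2 fold change of -0.9995 (SE 0.110, adjusted p = 2.49e-06 by edgeR). Cdc20 activates the anaphase-promoting complex. It went from 31.2, 38.1 and 35.3 CPM to 19.6, 12.08 and 12.02 CPM, with a log2 fold change of -1.27 (SE 0.156, adjusted p = 7.85e-06), and the groups of both genes were apart. Of all 50-mers in the transcripts of Cdc20, 10.4% also occur in some other gene, most often in Gm7856, so a part of its reads could be split between genes.

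Of the other checkpoint genes, Bub1 fell by 1.34, Bub1b (which encodes BUBR1) by 1.16 and Ttk (which encodes MPS1, the kinase that starts the signal) by 0.92 on the log2 scale. Bub3, the small adaptor that carries BUB1 and BUBR1 to KNL1, was not called. It was at 72.8, 77.5 and 82.8 CPM in PBS and at 76.2, 65.5 and 59.4 CPM in IL-3, where replicate 1 stood within the PBS range. The log2 fold change was -0.22 (95% interval -0.40 to -0.04, adjusted p = 0.0566), and it passed without PBS replicate 1 (adjusted p = 0.0430) or IL-3 replicate 1 (adjusted p = 0.00735). It also passed with library totals (-0.38, adjusted p = 0.00403) and with no filter on low counts (adjusted p = 0.0361). Mad1l1, which encodes the kinetochore anchor of MAD2, had 10.6, 11.9 and 15.4 CPM in PBS and 13.3, 11.3 and 10.0 CPM in IL-3. Its groups overlapped and its log2 fold change of -0.14 (95% interval -0.48 to 0.21, adjusted p = 0.552) became 0.028 without PBS replicate 3.

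Ratios of reads within a library were also taken for pairs of partners. The ratio of Bub3 to Bub1 reads was 4.86, 3.39 and 4.90 in the PBS libraries and 9.08, 9.84 and 8.91 in the IL-3 libraries. For Mad1l1 and Mad2l1 the ratio was 0.357, 0.320 and 0.457 in PBS and 0.734, 0.683 and 0.635 in IL-3. Neither ratio overlapped between the groups. The ratio of Cenpq to Cenpu, 3.04, 2.33 and 2.64 in PBS and 2.95, 5.79 and 5.35 in IL-3, did overlap. In all, 7 pairs were formed after the values were seen, nearly all of a gene without a call and one with a call, a choice that favours such a difference, and no test is given.

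The chromosomal passenger complex corrects faulty attachments and later helps to divide the cell. All 4 of its genes fell, with log2 fold changes between -1.18 and -0.99. Birc5, which encodes survivin, was at 51.0, 52.2 and 54.1 CPM in PBS and at 23.8, 24.9 and 20.9 CPM in IL-3. Its log2 fold change was -1.18 (SE 0.0880, adjusted p = 2.56e-08 by edgeR), or 2.26-fold lower. Incenp, the scaffold of the complex, went from 60.2, 82.0 and 78.8 CPM to 38.9, 31.2 and 30.8 CPM, a log2 fold change of -1.14 (SE 0.115, adjusted p = 9.56e-07). Neither gene had overlapping groups. Aurkb, the kinase subunit, fell by 1.096 and Cdca8, which encodes borealin, by 0.99 on the log2 scale.

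**Figure D3:**
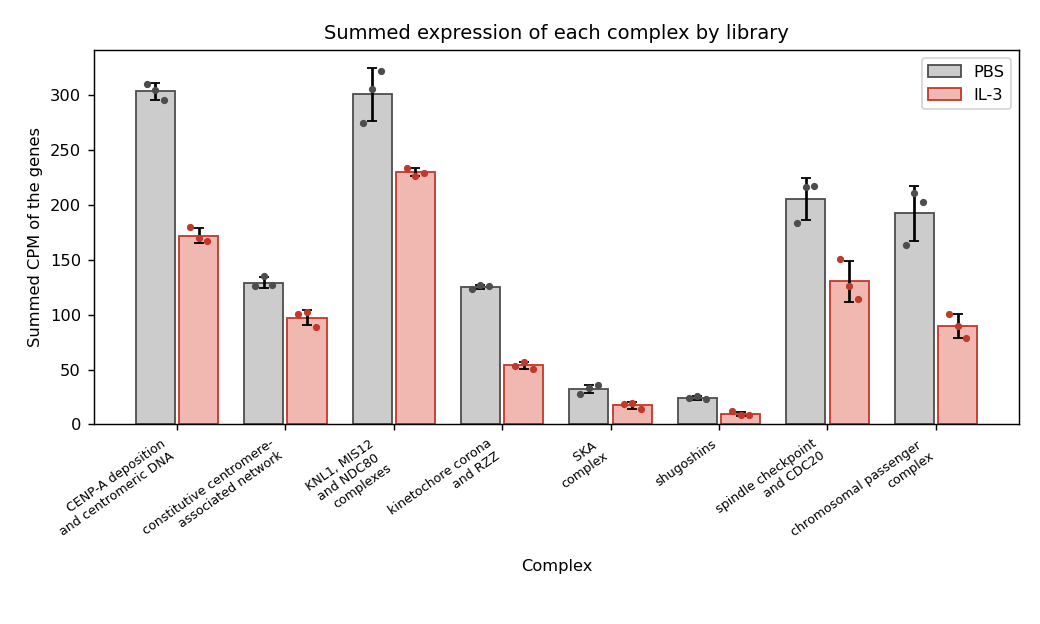
Summed CPM of the genes of each complex (y axis) by complex (x axis). Bars are means of 3 libraries, whiskers are SD and points are single libraries. The IL-3 libraries lie below the PBS libraries in all 8 groups, with the PBS mean between 1.31-fold (KNL1, MIS12 and NDC80 complexes) and 2.52-fold (shugoshins) above the IL-3 mean.

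The sums of the corona and of the KNL1, MIS12 and NDC80 complexes show how far the groups differed in extent. The corona genes went from a summed 124, 127 and 126 CPM in PBS to 53.5, 56.7 and 50.9 CPM in IL-3. The KNL1, MIS12 and NDC80 genes summed to 275, 306 and 323 CPM in PBS and to 234, 227 and 230 CPM in IL-3. Zwint alone accounts for more than 100 CPM of each of these sums. Per kilobase of the longest annotated transcript, Zwint and Cenpa were the highest of the 49 genes in PBS, at 43.8 ± 5.06 and 31.4 ± 1.49 CPM per kb (SD, n = 3). With the median transcript length in its place they ranked 2 and 3 behind Incenp.

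The motifs in the promoter windows were more frequent in these genes than in the genes tested as a whole. A window reaches from 250 bases before to 50 bases from the start on. Windows were found for 43 of the 49 genes, and Spc24, Nsl1, Zwilch, Ska1, Aurkb and Incenp had none. A CHR was present on either strand in 19 of the 43 genes, or 44.2%, against 16.1% of the 10841 tested genes with a window. On the gene's own strand alone it was present in 9, or 20.9%, against 8.97%. A CCAAT box was present in 30 genes, or 69.8%, against 43.0%. E2F motifs, searched as TTTGGCGC or TTTCCCGC on either strand, were found in 4 genes, or 9.3%, against 3.2%. A match of these letters is a description of the sequence and not evidence of binding.

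The CHR stood close to the start in most of the genes that had one. Of the 19 distinct sites 17 began within 50 bases of the start, a distance chosen after the matches were seen. By that measure 17 genes had a CHR near the start, or 39.5% against 4.25% of all genes tested with a window. Both a CHR near the start and a CCAAT box were present in 14 genes, or 32.6% against 1.91%.

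Genes with a CCAAT box and a CHR near the start were called lower in 13 of 14 cases (median log2 fold change -1.08), and Bub3 was the exception. Of the 29 other members with a window 20 were called lower (median -0.76). With the CHR anywhere in the window 15 of 16 genes with both elements were called lower, and 18 of the 27 others. Of the 3 genes with only the CHR near the start 2 fell (median -0.93). Among the 16 genes with a CCAAT box and no CHR near the start 11 fell (median -0.73), of which Pmf1 and Cenpl had a CHR further upstream. The range of this class ran from -1.99 for Cenpm to 0.22 for Cenpq. Of the 10 genes with neither, 7 fell (median -0.51). Birc5 was among these, with no match in the stretch shown above and a log2 fold change of -1.18. For the E2F motifs, 3 of the 4 members with a match were called lower (median -0.43). Of the 39 members without one 30 were called lower (median -0.99). Over all tested genes with a window, 41.5% of the 207 genes with a CCAAT box and a CHR near the start were called lower and 23.2% of the others. The members are counted in that share, and no test was made of it.

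**Figure D4:**
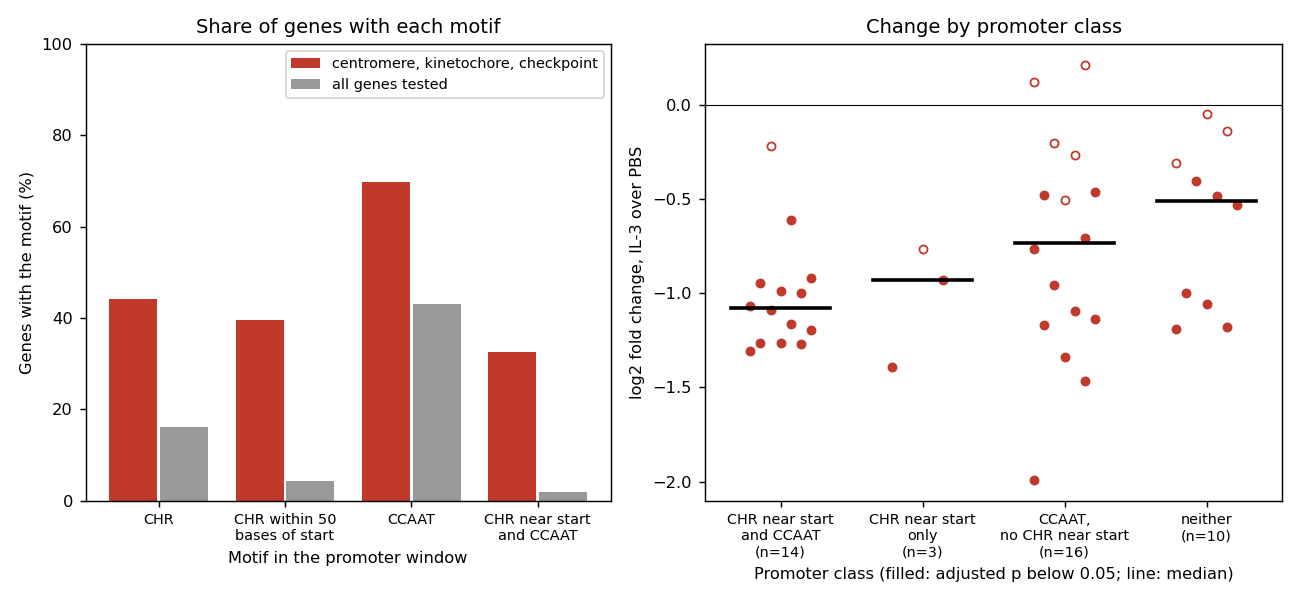
Left, percentage of genes (y axis) whose promoter window holds each motif (x axis), for the 43 members with a window and for all 10841 genes tested with a window. Right, log2 fold change of IL-3 over PBS (y axis) for the members in each promoter class (x axis), with filled points at an adjusted p below 0.05 and lines at the class medians, which run from -1.08 with a CCAAT box and a CHR near the start to -0.51 with neither.

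The other genes of cell division moved to different extents. Condensin, which compacts chromosomes for mitosis, fell in all 8 of its genes (median log2 fold change -1.01), beside 20.2% of all genes tested. Ncapd2 went from 74.8 ± 9.08 to 33.8 ± 5.51 CPM (SD, n = 3) and Smc2 from 59.9 ± 6.50 to 31.9 ± 1.43 CPM. The kinases and cyclins of mitotic entry fell in 14 of 17 genes (median -0.81), beside the same share of all genes. Ccnb2 fell by 1.42 and Ccna2 by 0.94 on the log2 scale. These medians are close to the -0.99 of the centromere and kinetochore genes.

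The subunits and regulators of the anaphase-promoting complex fell in 7 of 18 genes and rose in 0, beside 20.2% and 18% of all genes tested, with a median of -0.11. Its mitotic conjugating enzyme Ube2c fell by 1.18 on the log2 scale (adjusted p = 4.20e-09 by edgeR) and the subunit Anapc5 by 0.62. Cohesin and separase genes fell in 6 of 15 and rose in 3 (median -0.19), beside the same shares of all genes. Esco2 and Espl1, which act in S phase and at anaphase, fell by 1.022 and 0.97. Wapl and Esco1 rose by 0.18 and 0.29 on the log2 scale (adjusted p = 0.0186 and 0.0244). Rises of the size of that in Wapl are about as large as the shift of all genes by -0.17 under scaling by library totals.

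A further list of 24 centromere and kinetochore genes was read beside the 49, and Sgo2b did not pass the filter. Of the 23 tested 9 fell and 3 rose, with a median of -0.35, beside 20.2% lower and 18% higher over all genes tested. Kif2c, a kinesin that takes microtubules apart at centromeres, went from 11.1 ± 0.641 to 4.57 ± 0.407 CPM (SD, n = 3). Ndel1, a dynein regulator with uses outside mitosis, rose from 72.2 ± 3.89 to 109 ± 4.90 CPM. Tpr, a nuclear pore protein that binds MAD1, rose by 0.18.

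In the list of DREAM, MuvB, FOXM1 and E2F genes, which regulate the cell cycle wave, 11 of 23 fell and 3 rose (median -0.27). Of all genes tested, 20.2% were called lower and 18% higher. E2f8, a repressor that is itself an E2F target, went from 34.0, 33.9 and 33.5 CPM to 8.69, 10.99 and 11.2 CPM, a log2 fold change of -1.70 (SE 0.115, adjusted p = 7.83e-09 by edgeR). Tfdp2, an E2F dimerization partner, fell by 1.26. Nfyb, a subunit of the CCAAT-binding factor NF-Y, rose by 0.58 and E2f4 by 0.34 on the log2 scale (adjusted p = 0.000427 and 0.00256). Lin54, whose product binds the CHR, fell by 0.44 and Foxm1 by 1.08, and these were named outside the rule after their values were seen.

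Genes of G1/S and replication licensing fell in 13 of 22 and rose in 1 (median -0.59), beside 20.2% lower and 18% higher over all genes tested. Rrm2 fell by 1.22 and Gmnn by 0.97 on the log2 scale, while Tyms rose by 0.40 (adjusted p = 0.00238 by edgeR). Of 7 general markers of proliferation 6 fell (median -0.91), beside the same share of all genes. Stmn1 went from 198 ± 17.9 to 73.2 ± 7.51 CPM and Hmgb2 from 401 ± 27.1 to 192 ± 9.27 CPM (SD, n = 3). All these lists share their 6 libraries with the centromere and kinetochore genes, and no test compared the lists.

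**Figure D5:**
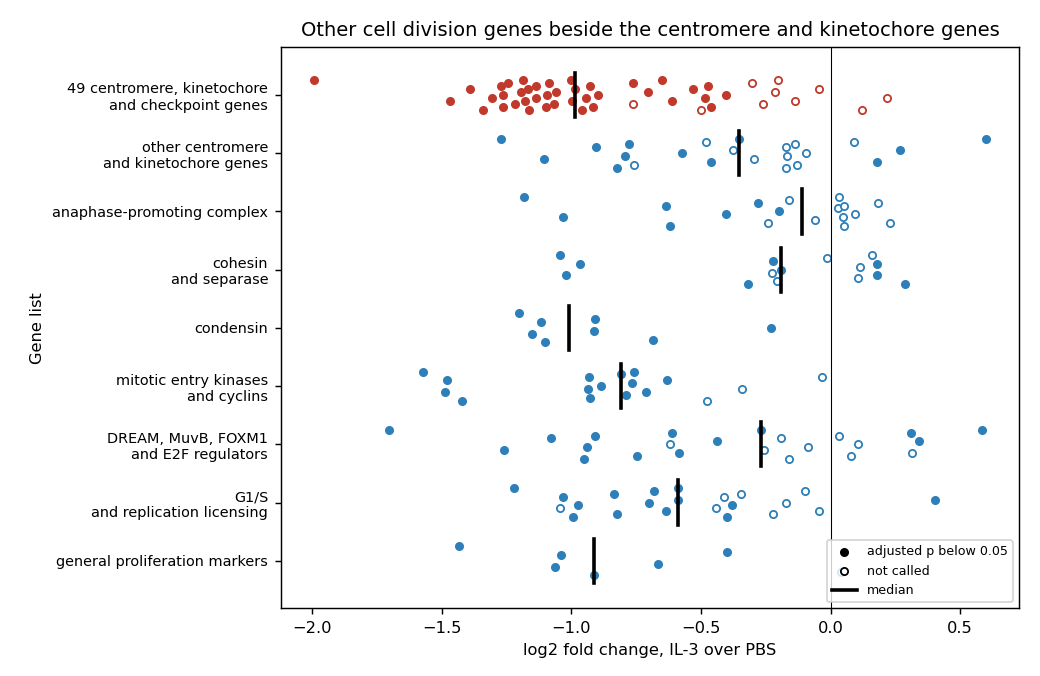
Log2 fold change of IL-3 over PBS (x axis) for the 49 centromere, kinetochore and checkpoint genes in red and for 8 other lists of cell division genes in blue (y axis). Each point is a gene, filled where the adjusted p was below 0.05, and the bars mark medians, which run from -1.01 for condensin to -0.11 for the anaphase-promoting complex.

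Markers of cell types also moved between the groups, and their part in the changes above was not tested. The counts for these lists stand beside 20.2% called lower and 18% called higher over all genes tested. The cultures carried basophil markers at high levels, among them the proteases Mcpt8 and Prss34. Of 8 basophil markers 6 rose and 1 fell, and their summed level was 10250 to 11444 CPM in PBS and 15297 to 15494 CPM in IL-3. Clec12a, the study's marker of pre-basophils, fell by 1.24 on the log2 scale, and Cd9, its marker of mature basophils, rose by 0.55. The study also found less Fcer1a, Mcpt8 and Prss34 expression in mature basophils than in pre-basophils. Of these, Fcer1a fell by 0.50, Mcpt8 rose by 0.94 and Prss34 was not called (log2 fold change 0.012). Of 11 monocyte and macrophage markers 8 fell and 2 rose, and their sum was 11893 to 12823 CPM in PBS and 6210 to 6834 CPM in IL-3. None of the 11 was at 0, and Lyz2 took the larger part of that sum.

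Of 8 mast cell markers 6 were tested and 4 rose, and their sum went from 841 to 945 CPM in PBS to 1438 to 1572 CPM in IL-3. Neutrophil markers fell in 1 and rose in 3 of 7 tested (122 to 159 CPM in PBS, 195 to 259 CPM in IL-3). Eosinophil markers fell in 3 and rose in 1 of 6 tested (157 to 175 CPM and 99.0 to 139 CPM). Erythroid markers fell in 2 of 4 tested (100.0 to 219 CPM and 54.6 to 101.1 CPM), with Alas2 at 0 in every library. Of 7 NK cell markers Nkg7 alone passed the filter and rose, the sum of the list went from 6.46 to 8.50 CPM in PBS to 28.8 to 33.2 CPM in IL-3, and Gzma was at 0 in every library. Of 4 dendritic cell markers 3 were tested and 0 were called by edgeR (76.3 to 82.8 CPM and 64.9 to 73.1 CPM), with Cd209a at 0 in every library. Stem and progenitor markers fell in 1 and rose in 2 of 6 (85.9 to 103 CPM and 112 to 133 CPM). Several of these small counts lie near the shares of all genes tested, 20.2% lower and 18% higher.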

How the data were processed

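Raw read counts per gene symbol were deposited by the authors as a single table of 6 libraries. By the study's methods, the authors captured poly(A) RNA on oligo-dT beads, amplified the cDNA, trimmed the reads with Cutadapt 3.4, mapped them with Bowtie2 to reference RNA of build GRCm38 and counted reads per gene. The submitters' processing notes name GRCm39, and the labels name a column-based RNA kit where the methods name direct lysis. No molecular identifiers are described, so PCR copies were counted as separate reads. Intervals and SEs come from the fit over the libraries and include the spread between them. Mapping to transcripts can split reads between similar genes.

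Counts were filtered with filterByExpr, scaled by TMM and tested in edgeR 4.0.16 (R 4.3.3) with the two-sided quasi-likelihood F test and no term but the group. P-values were adjusted by Benjamini-Hochberg over the 16675 genes tested, and a gene was called below 0.05. The study used TCC for normalization and testing, whose iterated normalization was not run here. SE was derived from the F value, and CPM are TMM-scaled. The members and all gene lists were chosen with earlier results of these data known, so counts over a list are descriptions. Values in every library are given for the 2 members with the smallest adjusted p in each complex and for each member not called, and for each related list the 2 smallest adjusted p in either direction were named. One gene that this rule selects is not reported here. Cenpb, Cenpt and summed or paired values were added after the values were seen.

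Genes were located in GENCODE M21 (GRCm38), where all 49 were matched, and promoter windows came from RefSeq (GRCm38.p6). The share of 50-mers found in another gene was computed, and it exceeded 1% in 14 members. The pipeline was tested on simulated counts. Alternatives included DESeq2 1.42.0, limma-voom (limma 3.58.1), other scalings, filters and thresholds, thinning and leaving out each library.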

Additional observations from a re-analysis of the deposited data

How the results depend on the processing

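Over 19 alternatives to the fit, 0 members were called higher in any, and 25 of the 49 members kept their direction and call in all of them. Against the 39 members called lower, the count was 24 in a test against a fold of 1.5 (glmTreat), which asks for a larger change and called 883 genes lower and 709 higher over all genes. The other alternatives gave 36 to 43. With library totals in place of TMM the members' median moved to -1.15 and 1698 genes were called higher. Leaving out 1 library at a time gave 36 to 40 members called lower, a median between -1.07 and -0.89, and 2883 to 3108 genes called lower and 2482 to 2787 called higher. At least 1 alternative ended the call of 15 members and 5 gained one (Cenpc1 and Mis12 with library totals, Cenpu without IL-3 replicate 1, and Ska3 and Bub3 in several). The sign turned in 4 members without a call. With 1 library left out Cenpo ranged from -0.18 to 0.10, Dsn1 from -0.52 to 0.060 and Mad1l1 from -0.25 to 0.028, and Zwint was at -0.043 with library totals. The cause was not tested. Replicate numbers were not taken to pair the libraries, since the deviations of same-numbered libraries correlated at -0.0087, -0.016 and -0.022 over all genes and at 0.123, 0.042 and 0.094 over the members. With the replicate block 40 members were called lower, and 3247 genes were lower and 2842 higher. The CHR was found in 9 members on the gene strand alone and in 17 within 50 bases of the start, against 19. After thinning to the smallest library 38 members were called lower, and Cenpt lost its call.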
